A study of Mus musculus with 2 samples.

Results

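The 8 genes Cacna1c, Cacna1d, Cacna1e, Cacnb2, Cacnb4, Cacna2d1, Cacna2d3 and Stac encode subunits of voltage-gated calcium channels or, for Stac, an adaptor of these channels. They were taken by gene symbol from the 48816 features of the count matrices, and all 8 were found once. The tissue was the stria vascularis (SV), the ion-transporting epithelium of the lateral wall of the cochlea, dissected from CBA/J mice at postnatal day 30 (P30), with the sexes mixed. The labels name no transgene, mutation or drug. The study compared ways of preserving nuclei before capture on the 10x Genomics platform. In the MethFix library, isolated nuclei were fixed in methanol after isolation. In the RNAlater library, the dissected tissue was kept overnight in RNAlater, a salt solution that stabilises RNA, before nuclei were isolated. Each library is 1 pool of mice, of between 5 and 6 animals for MethFix and about 10 for RNAlater in the labels, while the methods of the study give fewer animals for RNAlater.

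The MethFix matrix holds 4748 barcodes and 21027671 UMIs (unique molecular identifiers, 1 per captured RNA molecule), and the RNAlater matrix 3868 barcodes and 17681824 UMIs. Of the barcodes, 3323 stand in both matrices, 70.0% of those in MethFix and 85.9% of those in RNAlater. On them RNAlater was deeper, with 16947758 UMIs against 14015584 in MethFix, and for Cacnb2 59007 against 49587. The counts were thus not equal, while their chi-square per entry was 0.43 over all genes, under the 1 of sampling noise alone. The smaller of the 2 counts of each barcode was taken as common, which the greater depth of RNAlater favours. Of the MethFix UMIs of the 8 genes on these barcodes, between 87.2% (Cacna2d3) and 99.4% (Cacnb2) were common to both. The 2 libraries were therefore counted as 1 sample. Values are given for each library side by side, no test was made, and 2 like values are not a replication. Intervals are exact 95% intervals, Poisson for UMIs and binomial for shares, and they cover counting error only.

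After filtering, 3372 MethFix nuclei and 2311 RNAlater nuclei were clustered within each library, without the calcium channel genes among the variable genes. Of these nuclei, 2407 in MethFix and 2276 in RNAlater had a barcode that stands in both matrices, so nearly all RNAlater values rest on shared barcodes. Clusters were named from marker lists, as marginal-like or basal-like for example, and are called marginal or basal nuclei for short. Marginal nuclei (1105 in MethFix and 671 in RNAlater) carried Esrrb at 2926 and 2984 CPM, against 27.1 and 25.9 CPM in basal nuclei. CPM (counts per 1e6) are the UMIs of a gene scaled by the total UMIs of the class. Basal nuclei (753 and 592) carried Fat2 at 935 and 953 CPM, against 12.0 and 11.4 CPM in marginal nuclei. Kcnq1 was also higher in marginal nuclei and Cldn11 in basal nuclei, but these genes are among the markers that named the clusters, so their levels describe the classes and do not test the names. The lists for these classes also held Kcne1 and Hmx2 (marginal) and Sox8, Tjp1 and Nr2f2 (basal). Lmx1a, also a marginal marker, was higher in marginal than in basal nuclei. It was highest in Reissner nuclei, at 2328 CPM in MethFix and 2479 CPM in RNAlater. In root nuclei it was close to the marginal level (1205 against 1193 CPM in MethFix). The other classes compared were intermediate (853 and 522 nuclei), root (72 and 69), spindle (97 and 55) and Reissner's membrane (155 and 156).

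A voltage-gated calcium channel opens on depolarisation and lets calcium into the cell. Its pore is a single large protein that sets the channel type: Cacna1c and Cacna1d encode the pores of L-type channels, which mediate long-lasting currents, and Cacna1e the pore of the R-type channel. Cytoplasmic β subunits (Cacnb2, Cacnb4) carry the pore to the membrane and tune its gating, extracellular α2δ subunits (Cacna2d1, Cacna2d3) raise the number of channels at the surface, and Stac proteins bind L-type channels and change their inactivation. In the cochlea the L-type channel of Cacna1d is best known from inner hair cells, where it triggers transmitter release. The SV makes the endocochlear potential: marginal cells secrete potassium into the endolymph, intermediate cells are melanocytes with the potassium channels that generate the potential, and basal cells seal the layer with tight junctions.

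The 8 genes lie on 6 chromosomes of GRCm38 (GENCODE M21) and are all protein coding. Cacna1d (chromosome 14, 30039939 to 30491455, minus strand) and Cacna2d3 (chromosome 14, 28904943 to 29721864, minus strand) share a chromosome, as do Cacnb2 (chromosome 2, 14603088 to 14987908, plus strand) and Cacnb4 (chromosome 2, 52428320 to 52676831, minus strand). Cacna1c lies on chromosome 6 (118587240 to 119196418, minus strand), Cacna1e on chromosome 1 (154390731 to 154884501, minus strand), Cacna2d1 on chromosome 5 (15934691 to 16374511, plus strand) and Stac on chromosome 9 (111561437 to 111690348, minus strand). The genes span between 129 kb (Stac) and 817 kb (Cacna2d3). For Cacna1c, Cacna1d, Cacna1e and Cacna2d3 the matrices carry another version of the gene identifier. Their spans in the annotation used for counting may therefore differ. Features annotated on the same strand inside 6 of the 8 genes had 0 UMIs in MethFix, so no counts of those features stood apart from their host gene.

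RefSeq (GRCm38.p6) gives 14 promoters for the 8 genes, each read from 250 bases before to 50 bases after a transcription start. Stac and Cacna1e have 1 promoter each in that table and differ in opposite directions between marginal and basal nuclei, and the 250 bases before their starts are shown here, 5′ to 3′ along the gene, with CpG pairs in capitals. The Stac window is chr9:111690349-111690598 and the Cacna1e window chr1:154725921-154726170, both on the minus strand.
Stac: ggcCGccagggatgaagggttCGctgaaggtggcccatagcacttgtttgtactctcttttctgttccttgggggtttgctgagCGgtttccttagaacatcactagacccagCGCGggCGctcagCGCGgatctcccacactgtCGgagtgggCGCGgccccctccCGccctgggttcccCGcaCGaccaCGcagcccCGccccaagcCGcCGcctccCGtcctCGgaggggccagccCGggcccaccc
Cacna1e: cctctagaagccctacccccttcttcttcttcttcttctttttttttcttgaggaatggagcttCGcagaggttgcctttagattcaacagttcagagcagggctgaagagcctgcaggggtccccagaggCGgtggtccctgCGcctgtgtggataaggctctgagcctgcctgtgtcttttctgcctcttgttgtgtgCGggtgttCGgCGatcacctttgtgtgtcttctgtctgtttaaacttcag
The Cacna1e window lies inside the GENCODE span of the gene given above, so the annotations place its start differently, while the Stac window abuts the GENCODE start. The 250 bases of Stac hold 21 CpG pairs and those of Cacna1e 6, and the full windows of 300 bases hold 29 and 11. Over windows of 300 bases, the median of all 32851 RefSeq promoters was 7 CpG pairs (quartiles 3 and 20), and the 14 windows of the 8 genes ranged from 3 to 63. Those extremes belong to alternative promoters, 3 CpG pairs to 1 of the 3 windows of Cacna1c and 63 to 1 of the 2 windows of Cacna1d, and the other window of Cacna1d holds 4, so windows of the same gene lay far apart. The letters AAGGTCA, which the receptor Esrrb is known to bind, and TAATTA, a core bound by homeodomain proteins such as Lmx1a, were searched on both strands of the 300 bases. They stood in 4.72% and 5.29% of all promoters and in 0 of the 14 windows of the 8 genes.

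Of the 6 classes, 4 of the 8 genes had their highest level in marginal nuclei in both libraries (Cacna1d, Cacnb2, Cacnb4 and Stac). For comparison, marginal nuclei held the highest level of 18.2% of all genes in MethFix and 18.1% in RNAlater. Basal nuclei held the highest level of Cacna1e and Cacna2d3 (18% of all genes in MethFix and 18.3% in RNAlater), and Reissner nuclei that of Cacna1c and Cacna2d1 (14% and 12.7% of all genes). Intermediate, root and spindle nuclei were highest for none of the 8. Of all genes, they were highest for 14.6%, 17.8% and 17.4% in MethFix and 15.5%, 16.6% and 18.7% in RNAlater. Each pore gene thus peaked in another class: Cacna1d in marginal, Cacna1e in basal and Cacna1c in Reissner nuclei. The first 3 classes in the order of levels were the same in both libraries for Cacna1c, Cacna1d, Cacnb2, Cacna2d1 and Cacna2d3.

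**Figure D1:**
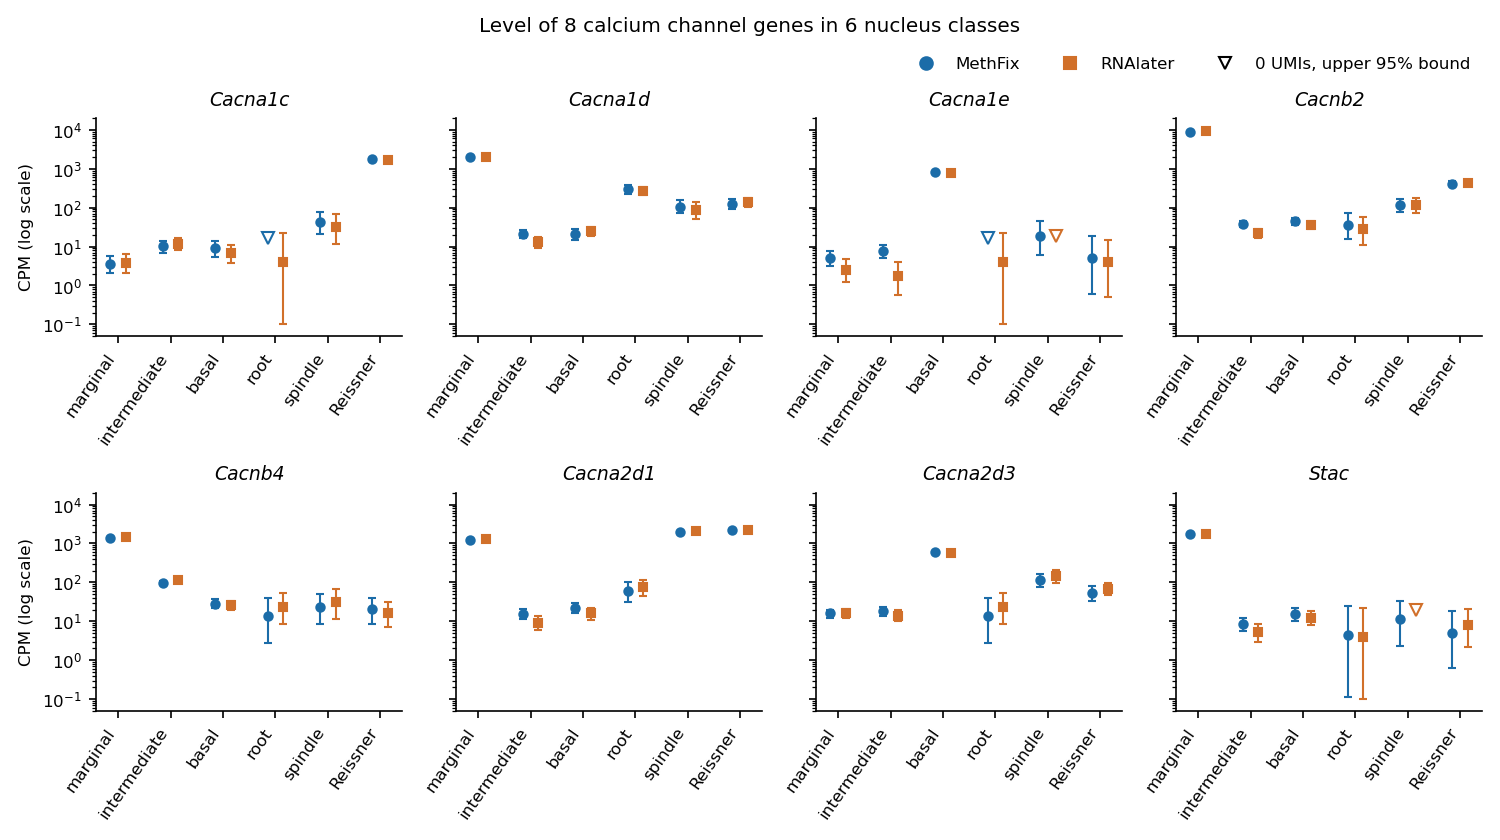
CPM on a log scale (y axis) of the 8 genes in 6 classes of nuclei (x axis), with circles for MethFix, squares for RNAlater, exact 95% Poisson intervals as bars, and open triangles at the upper bound where a class had 0 UMIs. Cacna1d, Cacnb2, Cacnb4 and Stac peak in marginal nuclei, Cacna1e and Cacna2d3 in basal nuclei, and Cacna1c and Cacna2d1 in Reissner nuclei.

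Cacna1d, an L-type pore, was at 1953 CPM in MethFix marginal nuclei (interval 1913 to 1993) and at 1966 CPM in RNAlater marginal nuclei (1923 to 2010). A UMI of it was found in 97.4% of the MethFix and 99.7% of the RNAlater marginal nuclei, and in 82.2% and 85.9% after each nucleus was thinned to 1000 UMIs. The next class was root, cells that lie just outside the SV with processes in the spiral ligament. It was at 294 CPM (227 to 375) and 266 CPM (206 to 338). That is 6.63 and 7.39 times lower than in marginal nuclei. Cacna1d in root nuclei was thus at 15.1% and 13.5% of its marginal level. Of the marginal markers, Kcnq1 was at 7.50% and 7.69% there, Esrrb at 0.464% and 0.532%, and Lmx1a at 101% in each library. Cacnb2, Cacnb4, Cacna2d1 and Stac were at between 0.231% and 5.75% of their marginal levels in root nuclei. The part of RNA from marginal nuclei in the root level was not tested. Reissner nuclei (126 and 137 CPM) and spindle nuclei (107 and 87.8 CPM) followed, and their intervals overlapped in both libraries. Intermediate nuclei (21.0 and 13.0 CPM) and basal nuclei (20.9 and 24.5 CPM) held the least. A Cacna1d UMI was found in 5.31% of MethFix basal nuclei, at a median depth of 2486 UMIs against 4552 UMIs in marginal nuclei.

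Cacna1e, the R-type pore, was at 807 CPM in MethFix basal nuclei (769 to 846) and at 791 CPM in RNAlater basal nuclei (755 to 829). UMIs of it were found in 61.2% and 66.2% of the basal nuclei, and in 42.9% and 41.1% after thinning. Every other class held at most 26 UMIs of it. In MethFix it was highest after basal nuclei in spindle nuclei, at 19.1 CPM from 5 UMIs, followed by intermediate nuclei at 7.69 CPM, marginal nuclei at 5.07 CPM and Reissner nuclei at 5.05 CPM, and root nuclei had 0 UMIs. In RNAlater the remaining classes were between 0 and 4.08 CPM, with 0 UMIs in spindle nuclei. The order among these low classes is not resolved at this depth, since neighbouring intervals overlapped.

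Cacna1c, the L-type pore of heart and smooth muscle, was at 1750 CPM in MethFix Reissner nuclei (1622 to 1885) and 1645 CPM in RNAlater Reissner nuclei (1534 to 1763). It was found in 85.2% and 86.5% of them, and in 77.3% and 74.5% after thinning. Reissner's membrane separates the endolymph from the perilymph of the scala vestibuli. The next class, spindle, was at 41.9 CPM (11 UMIs) and 31.0 CPM (6 UMIs), or 41.7 and 53.1 times lower. Marginal nuclei were the richest of the 6 classes in the other L-type pore. They had only 17 Cacna1c UMIs in MethFix (3.59 CPM) and 15 in RNAlater (3.80 CPM). Of the smooth muscle markers, Acta2, Myh11 and Cnn1 were at 0 in the Reissner nuclei of both libraries and the 5 genes of that list summed to 15.1 and 16.3 CPM. The 5 pericyte markers summed to 27.8 and 18.4 CPM there. The part of RNA from such cells in the Cacna1c level was not tested.

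Cacnb2, a β subunit, was at 9038 CPM in MethFix marginal nuclei (8952 to 9124) and 9137 CPM in RNAlater marginal nuclei (9043 to 9232). It was found in 99.4% and 100% of them and stayed at 99.6% and 99.1% after thinning. The median marginal nucleus held 34 UMIs of it in MethFix (quartiles 19 and 54) and 50 in RNAlater (32.5 and 70). No other member came near that count. Cacna1d was next, with a median of 8 and 11 UMIs. Counts of different genes may also depend on their lengths, which was not tested. Cacnb2 was 21.7 and 21.0 times lower in Reissner nuclei, at 417 and 434 CPM. Spindle nuclei had 114 CPM in each library, and intermediate, basal and root nuclei between 22.1 and 44.6 CPM.

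Cacnb4, the other β subunit, was at 1387 CPM in MethFix marginal nuclei (1354 to 1421) and 1457 CPM in RNAlater marginal nuclei (1419 to 1495). The share of marginal nuclei with a UMI was 88.1% and 96.7%, and 62.9% and 68.9% after thinning. It differed from the other genes high in marginal nuclei in the class that came next, which was intermediate, at 97.8 CPM (87.6 to 109) and 112 CPM (100 to 125). Intermediate nuclei thus held 7.05% of the marginal level of Cacnb4 in MethFix and 7.72% in RNAlater, while for Cacna1d, Cacnb2, Cacna2d1 and Stac they held between 0.242% and 1.23%. The markers Kcnq1, Esrrb and Lmx1a were at between 0.353% and 1.81% of their marginal level in intermediate nuclei. Cacnb4 UMIs were found in 18.5% and 25.1% of intermediate nuclei, and in 7.84% and 8.24% after thinning. Basal, root, spindle and Reissner nuclei had between 13.6 and 31.0 CPM.

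Cacna2d1, an α2δ subunit that binds gabapentin, was high in 3 classes. It was at 2265 CPM in MethFix Reissner nuclei (2119 to 2418) and 2261 CPM in RNAlater Reissner nuclei (2130 to 2398). Spindle nuclei had 1914 CPM (1751 to 2089) and 2123 CPM (1923 to 2338), which was lower than Reissner nuclei beyond counting error in MethFix but not in RNAlater, where the log2 ratio of Reissner to spindle was 0.09 (−0.07 to 0.26). Marginal nuclei had 1247 CPM (1216 to 1279) and 1312 CPM (1277 to 1349), 1.53 and 1.62 times lower than spindle nuclei. Root, basal and intermediate nuclei had between 9.13 and 75.4 CPM. Root and spindle nuclei, which share the markers Slc26a4 and Kcnj16, were thus far apart in Cacna2d1, at 58.9 and 1914 CPM in MethFix and 75.4 and 2123 CPM in RNAlater. Within spindle nuclei the UMIs were uneven, from 0 in 22 of 97 MethFix nuclei to 69 in the richest, with a median of 3. In RNAlater they ran from 0 in 5 of 55 spindle nuclei to 83, with a median of 4. Reissner nuclei ranged widely too. They ran from 0 in 24 of 155 nuclei to 62 in MethFix, and from 0 in 19 of 156 to 74 in RNAlater, with medians of 4 and 6.

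Cacna2d3, another α2δ subunit, was at 588 CPM in MethFix basal nuclei (556 to 622) and 580 CPM in RNAlater basal nuclei (549 to 613). It was found in 59.4% and 68.2% of basal nuclei, and in 37.9% and 38.4% after thinning. It was less restricted than Cacna1e: spindle nuclei held 114 and 145 CPM, or 19.4% and 24.9% of the basal level, and Reissner nuclei 53.0 and 67.3 CPM. Marginal nuclei had 15.8 and 16.0 CPM and intermediate nuclei 18.3 and 14.1 CPM. The basal marker Cldn11 stood at 27.8% and 21.2% of its basal level in the spindle nuclei, and Fat2 at 13.5% and 8.68%.

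Stac, the adaptor, was at 1711 CPM in MethFix marginal nuclei (1674 to 1749) and 1719 CPM in RNAlater marginal nuclei (1679 to 1761). It was found in 94.0% and 98.7% of marginal nuclei, and in 73.6% and 76.2% after thinning. Every other class was at or under 15.2 CPM in both libraries, with 0 UMIs in RNAlater spindle nuclei. Among the genes high in marginal nuclei it had the lowest second class: basal nuclei followed, 113 times lower in MethFix and 140 times lower in RNAlater. Reissner nuclei, which held Cacna1c, had 2 and 4 UMIs of Stac.

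Marginal nuclei were set against basal nuclei, the classes whose markers are described above. In both libraries, 5 of the 8 were over 2-fold higher in marginal nuclei: Cacna1d, Cacnb2, Cacnb4, Cacna2d1 and Stac. Of all genes with at least 20 UMIs in both classes together, 19.4% of 12051 were as far in that direction in MethFix and 18.9% of 11938 in RNAlater. Cacna1e and Cacna2d3 were over 2-fold higher in basal nuclei in both libraries, and Cacna1c in MethFix alone, against 16.9% and 17.7% of all genes. The 8 genes were chosen with levels of these libraries known, so these shares describe the list and are no evidence for it. Their median log2 ratio of marginal to basal CPM was 5.72 in MethFix and 6.08 in RNAlater, beside 0.11 for all genes in each library.

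The log2 ratio of Cacnb2 was 7.66 in MethFix (7.37 to 7.97) and 7.99 in RNAlater (7.67 to 8.33), from 42769 marginal against 94 basal UMIs in MethFix. Stac followed with 6.82 (6.32 to 7.36) and 7.13 (6.59 to 7.73), and Cacna1d with 6.55 (6.12 to 7.01) and 6.33 (5.94 to 6.74). For Cacna2d1 the ratio was 5.84 (5.42 to 6.29) and 6.37 (5.89 to 6.89), and for Cacnb4 5.61 (5.24 to 6.00) and 5.84 (5.46 to 6.25). All 5 intervals thus lay far from 0 in both libraries. In the other direction, Cacna1e had a log2 ratio of −7.31 (−7.96 to −6.74) and −8.29 (−9.35 to −7.40), 159 and 312 times lower in marginal nuclei. The MethFix value depended on the nuclei kept, at −5.55 with called doublets kept and −8.56 in barcodes found in both matrices. Cacna2d3 had −5.21 (−5.57 to −4.88) and −5.18 (−5.57 to −4.82). Cacna1c was low in both classes, with between 15 and 19 UMIs a class. MethFix gave a log2 ratio of −1.33 (−2.36 to −0.31), and RNAlater gave −0.84 (−1.98 to 0.29). In RNAlater that interval includes 0.

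**Figure D2:**
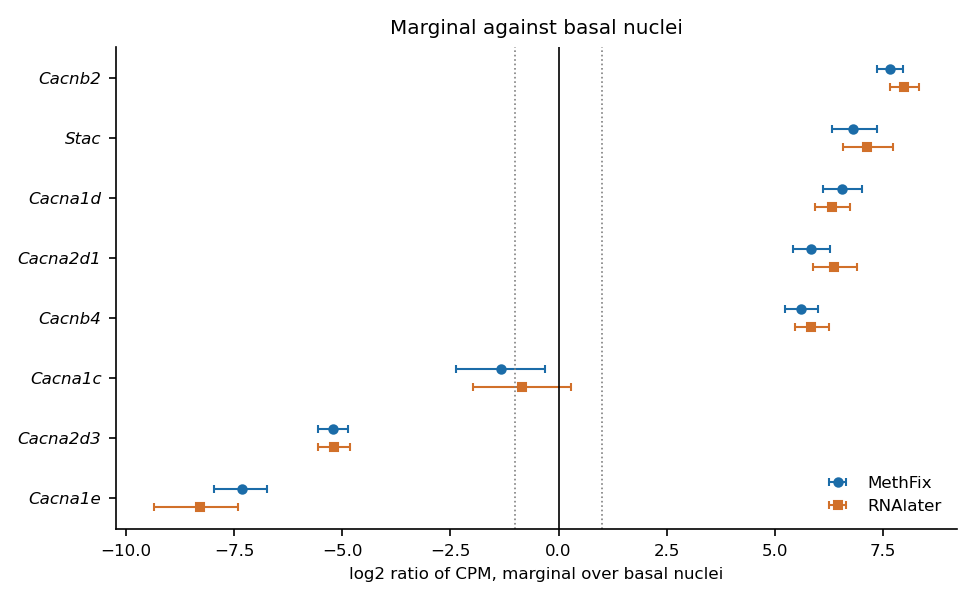
Log2 ratio of CPM in marginal over basal nuclei (x axis) for each of the 8 genes (y axis), with circles for MethFix, squares for RNAlater, exact 95% intervals as bars, a solid line at 0 and dotted lines at 2-fold. The 5 genes at the top lie between 5.61 and 7.99, Cacna2d3 and Cacna1e between −5.18 and −8.29, and Cacna1c is at −1.33 in MethFix and −0.84 in RNAlater.

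The genes high in marginal nuclei were each found in most of these nuclei, and often in the same ones. All 5 had a UMI in 895 of 1105 MethFix marginal nuclei (81.0%) and in 631 of 671 RNAlater marginal nuclei (94.0%). The RNAlater marginal nuclei were deeper, at a median of 6088 UMIs. After thinning the shares were 29.1% and 29.2%, with a median of 4 of the 5 genes per nucleus in both. Each gene alone was then found in between 62.9% (Cacnb4) and 99.6% (Cacnb2) of MethFix marginal nuclei. In RNAlater the range was from 67.1% (Cacna2d1) to 99.1% (Cacnb2). Whether the 5 occur together more often than these separate shares would give was not tested. In basal nuclei all 5 were found in 1 of 753 MethFix nuclei and in 0 of 592 RNAlater nuclei, and 76.0% and 69.9% had none of them. Reissner nuclei had a median of 2 of the 5 and no nucleus with all 5 in either library.

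The basal nuclei were not uniform. In both libraries 1 basal cluster was led by Sorcs3 and Col27a1 (219 nuclei in MethFix and 184 in RNAlater), and it was set apart after its genes were seen, so the values that follow are a description. Cacna1e was at 325 CPM in it in MethFix (276 to 381) and 309 CPM in RNAlater (264 to 360), against 949 CPM (902 to 998) and 945 CPM (899 to 993) in the other basal clusters. Cacna2d3 went the other way, at 847 CPM (767 to 934) and 872 CPM (794 to 955) against 512 CPM (478 to 548) and 487 CPM (454 to 522). The basal marker Fat2 was lower in the cluster as well, at 351 and 369 CPM against 1108 and 1139 CPM, while Cldn11 differed less, at 1087 and 1054 CPM against 1276 and 1371 CPM. The 4 markers of fibrocytes, cells of the neighbouring spiral ligament, summed to 213 CPM in the cluster in MethFix and 182 CPM in RNAlater, against 91.6 and 91.1 CPM in the other basal clusters, and all but A2m were detected on both sides. Among them Coch was at 127 and 118 CPM in the cluster against 44.3 and 41.9 CPM. The others differed less, with Otos at 45.9 and 52.5 CPM against 25.8 and 38.9 CPM. Slc4a11 was at 37.6 and 11.2 CPM against 21.5 and 8.99 CPM. The interval of the log2 ratio included 0 for Slc4a11 in both libraries and for Otos in RNAlater. At a clustering resolution of 0.5, a MethFix cluster of 246 nuclei led by Slc4a11 and Sorcs3 scored 4.38 for the fibrocyte list and 3.34 for the basal list and was left without a name. In a fibrocyte-like cluster of 17 nuclei in RNAlater, Cacna1e was at 79.2 CPM (25.7 to 185) from 5 UMIs. Cacna2d3 was at 47.5 CPM (9.80 to 139) there, from 3 UMIs. The part of fibrocyte RNA or nuclei in the differences of Cacna1e and Cacna2d3 was not tested.

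Past 2-fold, Cacna1e was higher in the other basal clusters (2.92 and 3.06 times), as were 10.2% of all genes in MethFix and 10.4% in RNAlater. Cacna2d3 was 1.65 and 1.79 times higher in the Sorcs3 and Col27a1 cluster and so stayed under 2-fold, and 4.29% and 4.4% of all genes were past 2-fold in that direction. Cacnb4, low in all basal nuclei, was among these in both libraries, at 54.2 and 46.9 CPM in the cluster against 20.9 and 18.6 CPM, and Cacnb2 in RNAlater, at 60.0 against 28.2 CPM. After thinning to 1000 UMIs, 17.8% of the other basal nuclei in MethFix and 17.0% in RNAlater had UMIs of both Cacna1e and Cacna2d3, 33.1% and 33.8% of Cacna1e alone, and 15.9% and 15.8% of Cacna2d3 alone. In the Sorcs3 and Col27a1 cluster the order was turned, with 10.9% and 9.50% with Cacna1e alone and 37.5% and 41.3% with Cacna2d3 alone. The nuclei of that cluster were shallower, at a median of 2076 and 2684.5 UMIs against 2866 and 3967, and the part of depth in the unthinned shares was not tested. The remaining basal clusters varied less in Cacna1e, between 746 and 1025 CPM.

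**Figure D3:**
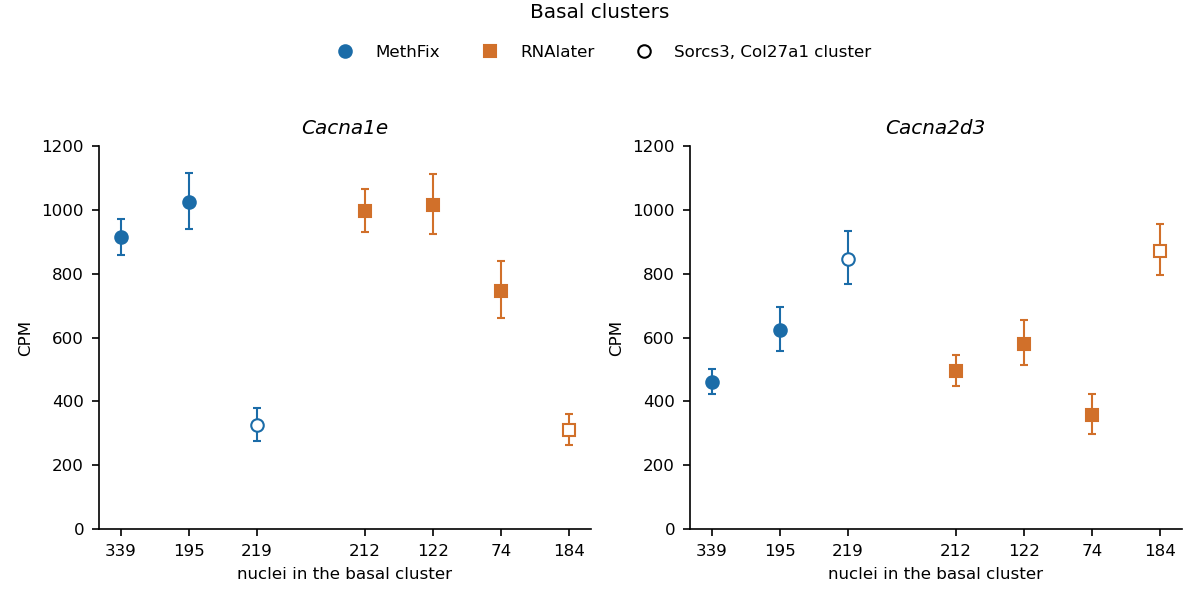
CPM of Cacna1e (left) and Cacna2d3 (right) in each basal cluster, with the number of its nuclei on the x axis, circles for MethFix, squares for RNAlater, open symbols for the Sorcs3 and Col27a1 cluster, and exact 95% Poisson intervals as bars. In both libraries the open symbols are the lowest for Cacna1e (325 and 309 CPM) and the highest for Cacna2d3 (847 and 872 CPM).

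Over the basal clusters the highest level of Cacna1e was 3.15 times the lowest in MethFix and 3.28 times in RNAlater. For Cacna2d3 it was 1.84 and 2.45 times. Among marginal nuclei the 5 genes high in that class varied less than Cacna1e did among basal nuclei. Over the 4 marginal clusters of RNAlater the highest level of each of the 5 genes was between 1.08 times (Cacnb2) and 1.42 times (Cacnb4) the lowest. In MethFix the range over 3 marginal clusters was wider, from 1.29 times (Cacna1d) to 1.83 times (Cacnb4). The lowest level of all 5 genes there was in a cluster of 179 nuclei with a median of 1641 UMIs, in which 164 nuclei (91.6%) had a barcode that does not occur in RNAlater. Cacna1e was highest among the marginal clusters in that same cluster, at 45.8 CPM from 16 UMIs, against 2.50 and 0 CPM in the other marginal clusters of MethFix.

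The MethFix nuclei were therefore split by barcode, into those that also occur in RNAlater and those in MethFix only (769 and 336 marginal nuclei, 622 and 131 basal nuclei). In marginal nuclei Cacna1d (1953 and 1951 CPM) and Cacnb2 (9052 and 8972 CPM) were close in both groups, while Cacnb4 was at 1463 CPM (shared) and 1045 CPM (MethFix only) and Cacna2d1 at 1294 and 1034 CPM. Several genes low in a class were higher in the nuclei found in MethFix only: in basal nuclei Cacnb2 was at 30.9 CPM (shared) and 178 CPM (MethFix only), and in marginal nuclei Cacna1e was at 2.07 and 18.6 CPM. In basal nuclei the intervals overlapped for Cacnb4 (28.3 and 30.5 CPM), Cacna2d1, Stac and Cacna1c, which was lower in MethFix only (9.43 and 5.09 CPM, from 18 UMIs and 1 UMI), and in marginal nuclei for Cacna2d3 and Cacna1c. The log2 ratio of marginal to basal for Cacnb2 was 8.19 in the shared nuclei and 5.66 in those of MethFix only, and that of Cacna1e −8.56 and −5.86. The nuclei of MethFix only were shallower, with medians of 2307 UMIs in marginal and 1116 UMIs in basal nuclei against 5196 and 2823. The part of depth and of RNA from other nuclei in these low levels was not tested. The direction of 7 of the 8 genes was the same in both groups, and Cacna1c, with 7 marginal UMIs and 1 basal UMI in the nuclei of MethFix only, was the exception.

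**Figure D4:**
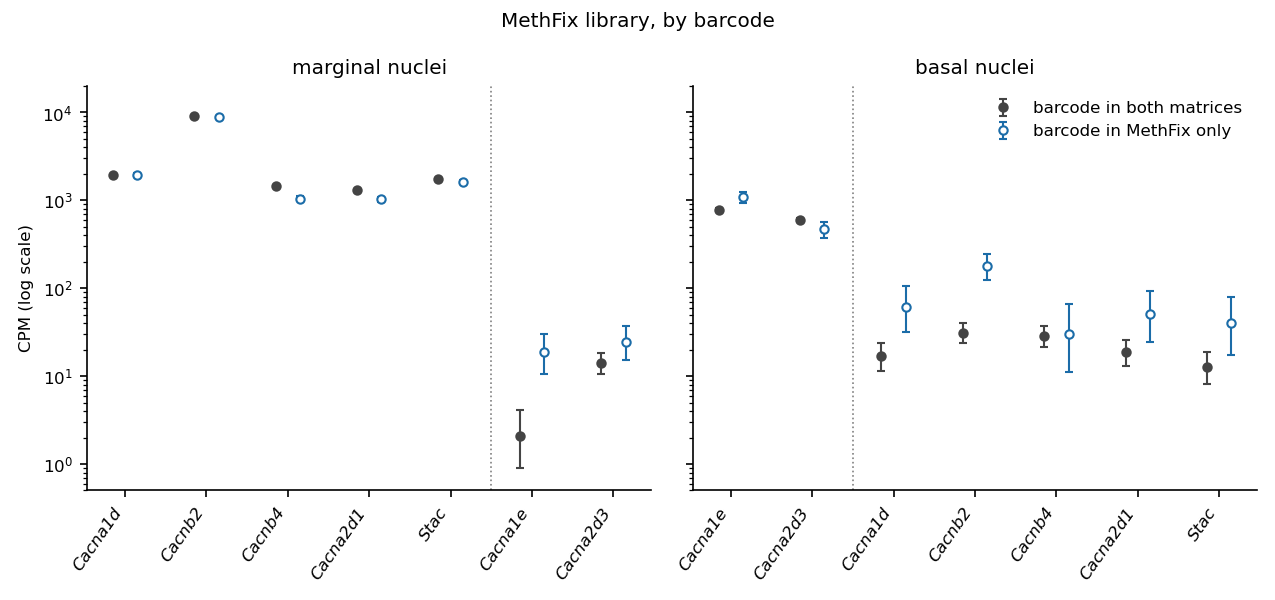
CPM on a log scale (y axis) in MethFix marginal nuclei (left) and basal nuclei (right) for 7 genes (x axis), with filled symbols for nuclei whose barcode is in both matrices, open symbols for those in MethFix only, exact 95% Poisson intervals as bars, and a dotted line between the genes high in the class and those low in it. Cacna1c, with at most 18 UMIs a group, is not drawn. Among the low genes, Cacnb2 in basal nuclei is at 30.9 CPM in the shared nuclei and 178 CPM in those of MethFix only, while Cacnb4 in basal nuclei is at 28.3 and 30.5 CPM.

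Classes were also taken from single barcodes, without clusters. Marginal nuclei had UMIs of at least 2 of Kcnq1, Esrrb and Lmx1a and none of Cldn11 and Fat2. Basal nuclei had UMIs of both Cldn11 and Fat2 and of at most 1 of Kcnq1, Esrrb and Lmx1a. This rule gave 879 marginal and 480 basal nuclei in MethFix and 530 and 439 in RNAlater. The direction of 7 genes was kept, and Cacna1c turned, and became higher in the marginal nuclei: MethFix had a log2 ratio of 2.75 (2.07 to 3.53), and RNAlater had 3.31 (2.67 to 4.02). Of the 267 Cacna1c UMIs in the MethFix nuclei taken as marginal, 250 came from 40 nuclei of the Reissner cluster (4.55% of the nuclei), and in RNAlater 326 of 340 came from 56 such nuclei (10.6%). In the nuclei that both rules called marginal, Cacna1c was at 3.17 CPM in MethFix and 4.85 CPM in RNAlater. Cacna2d1 had a log2 ratio of 3.71 in MethFix and 4.73 in RNAlater under the same rule, against 5.84 and 6.37 with classes from clusters. The nuclei taken as basal included 6 of the spindle and 2 of the Reissner cluster in MethFix, and 5 and 2 in RNAlater. Their part in the Cacna2d1 ratio was not tested.

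The rest of the channel family was scarce. Of 21 other genes for pores, β, α2δ, γ and Stac subunits, only 6 in MethFix and 5 in RNAlater had 20 UMIs in marginal and basal nuclei together. Of these, 3 were over 2-fold higher in basal nuclei in both libraries, beside 16.9% of all genes in MethFix and 17.7% in RNAlater. In the marginal direction 19.4% and 18.9% of all genes were as far. Cacna2d2, an α2δ subunit, had 142 basal and 2 marginal UMIs in MethFix (67.4 and 0.423 CPM) and 162 and 0 in RNAlater, where the log2 ratio of marginal to basal was at most −6.60 against a floor of 3 UMIs. Cacnb3, a β subunit, was at 28.0 CPM in basal and 2.54 CPM in marginal nuclei of MethFix (28.1 and 2.28 CPM in RNAlater), and Cacna1a, the P/Q-type pore, at 24.7 and 4.65 CPM (20.0 and 5.07 CPM). Only Cacna2d4, an α2δ subunit, was over 2-fold higher in marginal nuclei, and only in MethFix, at 4.44 against 1.90 CPM in basal nuclei, beside 12.9 and 7.26 CPM in RNAlater. The highest level of any of the 21 in the 6 classes was that of Cacna2d2 in basal nuclei, 67.4 CPM in MethFix and 73.5 CPM in RNAlater. The L-type pores of skeletal muscle and retina, Cacna1s and Cacna1f, and the T-type pore Cacna1h had 0 UMIs in all 6 classes of both libraries.

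Of 53 other genes of calcium handling (release channels, pumps, exchangers, store-operated entry, buffers and calcium-dependent signalling), 32 in MethFix and 31 in RNAlater had enough UMIs, and they differed in both directions. In each library 9 were over 2-fold higher in marginal nuclei, beside 19.4% of all genes in MethFix and 18.9% in RNAlater. Over 2-fold higher in basal nuclei were 8 in MethFix and 9 in RNAlater, beside 16.9% and 17.7% of all genes. The median log2 ratio of the genes with enough UMIs was −0.16 and −0.11, beside 0.11 for all genes. Itpr2, an inositol trisphosphate receptor that releases stored calcium, was at 2223 CPM in marginal and 130 CPM in basal nuclei of MethFix (log2 ratio 4.10, 3.93 to 4.28), and 2225 and 132 CPM in RNAlater. Atp2b1, a plasma membrane calcium pump, was at 1641 and 198 CPM in MethFix and 1631 and 196 CPM in RNAlater. Itpr1 had a log2 ratio of 1.72 in each library, Trpc1 of 3.22 and 3.01, Nfatc2 of 2.54 and 2.61, and Calm2 of 1.28 and 1.47.

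Higher in basal nuclei was Ahnak, a large scaffold protein that binds β subunits, at 503 CPM against 16.3 CPM in marginal nuclei of MethFix (log2 ratio −4.95, −5.30 to −4.62) and 510 against 13.4 CPM in RNAlater. Itpr3, the remaining inositol trisphosphate receptor, was at 117 and 9.93 CPM in MethFix and 121 and 11.7 CPM in RNAlater, opposite in direction to Itpr1 and Itpr2. Ryr3, a ryanodine receptor, had a log2 ratio of −3.94 and −3.84 from 6 marginal UMIs in each library. Slc8a3 and Slc8b1, sodium-calcium exchangers of the plasma membrane and of mitochondria, had log2 ratios of −2.42 and −2.04 and of −1.34 and −1.31. Calm3 had −2.18 and −2.43, opposite to Calm2, which encodes the same calmodulin protein.

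Clusters with few nuclei held some of the members at high levels. In the hair cell-like clusters of 8 (MethFix) and 9 (RNAlater) nuclei, Cacna1d was at 8190 CPM (7008 to 9513) and 7457 CPM (6556 to 8448) and Cacnb2 at 2059 CPM (1490 to 2774) and 1993 CPM (1541 to 2535), while Stac had 1 UMI in each library and Cacnb4 and Cacna2d1 had 0. A MethFix cluster of 6 pericyte-like nuclei had 51 UMIs of Cacna1c (4590 CPM, 3418 to 6036), found in all 6, and 13 of Stac. The RNAlater bone-like cluster of 56 nuclei had Cacna1c at 485 CPM, with a UMI in 12 of them, and Cacna1d at 426 CPM. A cluster led by genes such as Cdh6, Tenm2 and Robo2 (38 and 41 nuclei) was left without a name in both libraries. Its best list was endothelial, with scores of 2.74 and 2.45, closely followed by the basal list with 2.63 and 2.27. Cacna2d3 in this cluster was at 1242 CPM (1018 to 1501) and 1109 CPM (937 to 1305), above the level of the basal class. Cacna1e was at 418 and 372 CPM in it.

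The genes whose levels over the 6 classes were most like those of each member were sought among 11061 genes, by Pearson's r of log2(CPM + 10) averaged over both libraries. These are descriptions over 6 points that share libraries and class depths. For Stac they were Esrrb, a nuclear receptor and one of the marginal markers (r of 0.997), Add2 and 5031414D18Rik, and 102 genes had an r over 0.95 with Stac. Esrrb is among the genes that named the marginal clusters, so its r with Stac describes the classes and tests nothing. For Cacna1e they included Begain (r of 0.996) and Palmd (r of 0.993), and for Cacna2d3 they were Lpcat2, Cdh1, the epithelial cadherin (r of 0.982), and Fstl3. For Cacna1d they were Wdfy2, Osbpl10 and Hibch. For the β subunits they were Gm44127, Atp2c2, a calcium and manganese pump of the secretory pathway (r of 0.985), and Hgf for Cacnb2, and Txndc12, Nat8 and Rnf157 for Cacnb4. For the genes high in Reissner nuclei they were Gm42722, Hs3st5 and Otx2os1 for Cacna1c, and Tbx3, a transcription factor (r of 0.990), Slco1a5 and Frem1 for Cacna2d1. No member was among the genes compared, and the number of genes with an r over 0.95 ranged from 9 for Cacna2d3 to 136 for Cacna1e.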

How the data were processed

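The authors deposited 1 matrix of raw UMI counts per library, with features and barcodes, made with Cell Ranger 3.0.1 on GRCm38 per the submitters' processing notes, which also name Scanpy 1.4.5. Whether intronic reads were counted is not given in the sources used here. The samples were grouped by preservation method. The 8 genes and the gene lists were chosen with earlier results of these data known.

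Barcodes with at least 200 genes, at most 8000 UMIs and at most 10% mitochondrial UMIs, and genes in at least 3 nuclei, were kept. Scrublet in scanpy 1.11.5 (expected doublet rate 0.1) removed 224 barcodes in MethFix and 18 in RNAlater. Each library was clustered on 4000 variable genes, without 29 channel genes, with 30 principal components, 10 neighbours and Leiden (leidenalg 0.10.2) at resolution 1 for MethFix and 1.5 for RNAlater. Of 19 marker lists, a cluster took the name of the best if its score (mean log2 ratio of CPM + 10 to the lower quartile over clusters) was at least 1 and at least 0.7 of the highest for that name, at least 3 markers were detected, and the next list reached at most 0.75 of it. This rule was set after looking at clusters. It left 313 MethFix nuclei and 130 RNAlater nuclei without a name.

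Counts were summed per class and scaled to CPM by the total of the class. Ratios were made for genes with at least 20 UMIs in both classes together, and a class at 0 was set to a floor of 3 UMIs. A change past 2-fold was counted. Genes of other lists were named as the up to 6 with the largest ratio in each direction that passed 2-fold in both libraries, and the 3 genes most like each member were named, except 1 that is not reported here; Cacna2d4 was named after its values were seen. For thinned shares, each nucleus was thinned to 1000 UMIs and shallower nuclei were left out. The calculation was tested on simulated data. Scripts ran in R 4.3.3 and in Python 3.11.15, with pandas 2.3.3, scipy 1.17.1 and numpy 2.4.6. In all, 15 alternatives were planned and 1 was added after seeing the data, with edgeR 4.0.16 and DESeq2 1.42.0 used for scaling factors only.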

Additional observations from a re-analysis of the deposited data

How the results depend on the processing

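Of the log2 ratios of marginal to basal CPM under the alternatives, 187 stayed within the main interval, 26 moved and 3 reversed, all 3 for Cacna1c; the cause of the moves was not tested unless named. Under classes from single barcodes, MethFix gave 2.75 for Cacna1c (reversed), 3.71 for Cacna2d1 and −4.72 for Cacna2d3, and RNAlater gave 3.31 for Cacna1c (reversed), 4.73 for Cacna2d1 and −4.49 for Cacna2d3. With MethFix barcodes in 1 matrix only, the ratios were 0.68 for Cacna1c (reversed, −2.28 to 6.17), 5.00 for Cacna1d, −5.86 for Cacna1e, 5.66 for Cacnb2, 5.10 for Cacnb4, 4.35 for Cacna2d1, −4.26 for Cacna2d3 and 5.32 for Stac. With barcodes in both matrices, MethFix gave −8.56 for Cacna1e and 8.19 for Cacnb2. With nuclei thinned to 1000 UMIs, MethFix gave 5.22 for Cacna2d1 and 6.22 for Stac, and RNAlater gave −2.19 for Cacna1c, 5.70 for Cacna1d and 8.38 for Cacnb2. With no upper limit on UMIs, Cacnb2 was at 7.30 in MethFix and 7.64 in RNAlater. With called doublets kept, MethFix gave −5.55 for Cacna1e and −4.73 for Cacna2d3. Cacnb4 in MethFix was at 6.05 at resolution 0.5 and also without the Sorcs3 and Col27a1 cluster, an alternative added after seeing the data, under which RNAlater gave 8.34 for Cacnb2 and 6.29 for Cacnb4.

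Of the counts of genes past 2-fold, 237 stayed within 1.5 times and 11 moved. Other channel genes higher in marginal nuclei of MethFix, 1 in the report, came to 0 under single barcodes, thinning, barcodes in 1 matrix only and a minimum of 50 UMIs, and in RNAlater 1 was counted with no minimum beyond 1 UMI. Basal-higher counts were 885 for all genes, 0 for other channel genes and 5 for calcium handling in MethFix barcodes of 1 matrix only, and 1324 for all genes and 1 for other channel genes in thinned RNAlater, where fewer genes reach the minimum, and 3178 for all genes with no minimum beyond 1 UMI.

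No paired analysis was possible because each method has 1 library and the labels carry no replicate numbers. RNAlater barcodes in 1 matrix only were not run, since 1 marginal and 1 basal nucleus remained. Levels in root, spindle and Reissner nuclei that rest on a few UMIs have wide counting intervals.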
